A study of Mus musculus with 4 samples.

Results

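The genes described here are the Hox genes of the mouse Hoxa, Hoxb, Hoxc and Hoxd clusters, measured by RNA sequencing in 4 primary mammary tumors of female mice. Members were chosen by name alone, as every row of the expression tables whose symbol is Hox followed by a cluster letter and a number. This gave 39 of the 23746 rows, with 11 in Hoxa, 10 in Hoxb, 9 in Hoxc and 9 in Hoxd. All 4 tumors carried the WapCreC transgene, which expresses Cre from a milk protein promoter in mammary epithelium and deletes floxed alleles there, together with floxed Brca1 and p53 (Trp53). Tumors 26043 and 26044 came from WapCre;Rank;Brca1;p53 animals, in which Rank (Tnfrsf11a), the receptor for the cytokine RANKL, was floxed as well, and are called triple-mutant. Tumors 26048 and 26050 came from WapCre;Brca1;p53 animals and are called double-mutant. Each genotype therefore had 2 tumors, and the age of each animal and the gland of origin of each tumor are not given in the sources used here. The comparison asks how tumors that formed with and without epithelial Rank differ. RNA came from tumor tissue and not from sorted cells, so stroma, vessels and fat are part of every value, and a smaller number of cells that express a gene cannot be told apart from less of its RNA per cell.

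Hox genes encode homeodomain transcription factors that give cells their position along the body axis. They stand in 4 clusters in mammals, and within a cluster the genes at the 3′ end (low numbers, the anterior genes) are switched on earlier and further towards the head in the embryo than those at the 5′ end (high numbers, the posterior genes). Genes with the same number in different clusters are paralogs. Retinoic acid switches on 3′ genes, Trithorax complexes such as the one built on Kmt2a keep active genes on, Polycomb complexes keep silent genes off, and Pbx, Meis and Pknox proteins bind DNA together with Hox proteins. Hox genes are used in the embryonic and adult mammary gland, and several are expressed both in its epithelium and in its stroma.

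The 250 bases before the start of 3 genes named in the results are shown. Hoxb4 is one of the Hoxb genes that set the genotypes apart, and Hoxa2 and Hoxa5 stand for the Hoxa genes that divided the tumors of each genotype. Hoxb2 and Hoxb3, which had larger genotype differences than Hoxb4, had no entry among the promoter sequences used. The sequences are from RefSeq on GRCm38.p6 and read 5′ to 3′ on the strand of the gene, ending at the base before the first base of the transcript. Capitals mark a match to AGGTCA (the half-site bound by retinoic acid receptors), TGATTNAT (the shared site of Pbx and Hox proteins) or TGACAG (the Meis site), searched on both strands.
Hoxb4, chr11:96318017-96318266, plus strand: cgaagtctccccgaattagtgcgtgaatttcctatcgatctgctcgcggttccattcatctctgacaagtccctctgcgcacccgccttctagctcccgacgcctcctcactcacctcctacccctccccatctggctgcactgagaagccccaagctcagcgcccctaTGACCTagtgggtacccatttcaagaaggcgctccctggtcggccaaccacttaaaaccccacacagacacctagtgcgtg
Hoxa2, chr6:52164832-52165081, minus strand: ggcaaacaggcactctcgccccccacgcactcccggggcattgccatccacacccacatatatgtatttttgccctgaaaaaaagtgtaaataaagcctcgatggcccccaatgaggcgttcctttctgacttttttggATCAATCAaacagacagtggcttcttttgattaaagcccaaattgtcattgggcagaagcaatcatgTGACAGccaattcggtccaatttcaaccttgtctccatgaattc
Hoxa5, chr6:52204588-52204837, minus strand: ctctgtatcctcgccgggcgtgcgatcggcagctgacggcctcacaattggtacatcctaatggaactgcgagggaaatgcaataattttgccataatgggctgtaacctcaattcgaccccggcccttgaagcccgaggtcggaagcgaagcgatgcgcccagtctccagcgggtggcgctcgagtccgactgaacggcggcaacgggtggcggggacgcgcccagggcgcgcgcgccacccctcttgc

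The Hoxb4 stretch holds the receptor half-site, on the reverse strand, with its first base 81 bases before the start. The Hoxa2 stretch holds a Pbx-Hox site on the reverse strand 111 bases before the start and a Meis site 44 bases before it, and the Hoxa5 stretch, which lies inside the Hoxa3 locus, holds none of the 3 motifs. GC content was 58.0% for Hoxb4, 46.4% for Hoxa2 and 63.6% for Hoxa5, with 14, 6 and 28 CpG dinucleotides. Among the 27025 genes of the promoter table, 15.8% had AGGTCA in this window, 3.31% had TGATTNAT and 17.95% had TGACAG. Of the 22 Hox genes that matched the table, 6 had AGGTCA (Hoxb4, Hoxc4, Hoxd3, Hoxd4, Hoxd8 and Hoxd10), 2 had TGATTNAT (Hoxa2 and Hoxd11) and 2 had TGACAG (Hoxa2 and Hoxa3). The homeodomain core TAATTA was found in Hoxd11 alone of these, against 5.65% of all genes, and CCAAT in 14 of the 22 against 37.5%. These are matches of letters and say nothing of binding in the tumors.

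Levels are FPKM, fragments per kilobase of transcript scaled to the total of mapped fragments, estimated by the authors with Cufflinks, and they can be compared between genes because they are per length. Between 12150 and 12681 genes reached 1 FPKM in a tumor. Tnfrsf11a was 2.07 and 0.962 FPKM in triple-mutant tumors 26043 and 26044, and 10.6 and 11.9 FPKM in double-mutant tumors 26048 and 26050, and was thus lower in both tumors labelled as carrying floxed Rank. Brca1, floxed in all animals, was 3.26 and 3.28 FPKM in the triple-mutant tumors and 3.84 and 5.69 FPKM in the double-mutant tumors, and Trp53, floxed in all as well, was 15.7 and 87.8 FPKM against 150 and 103 FPKM. A value for a whole gene does not show whether the floxed exons were read, so these levels do not check the deletions. Tumor 26044 stood apart: its 8 pan-epithelial markers summed to 356 FPKM, against 2760 to 3418 FPKM in the other tumors, with Krt8 still at 98.3 FPKM.

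Hox transcripts were scarce in these tumors. Of the 39 genes, 13 reached 1 FPKM in at least 1 tumor, 19 stayed between 0 and 1 FPKM, with 0.973 FPKM (Hoxb9) the highest, and 7 were listed at 0 in every tumor. A listed 0 may be a failed estimate in these tables: the broadly expressed gene Nfe2l1 was listed at 0 in tumors 26043 and 26048 and at 44.6 and 53.9 FPKM in 26044 and 26050. Every Hox row, also those at 0, carried the Cufflinks status OK in each tumor. The highest value of any Hox gene was 12.1 FPKM, for Hoxb2. All Hox genes together summed to 27.0 FPKM in tumor 26043, 51.8 in 26044, 42.2 in 26048 and 7.68 in 26050. The genotypes overlapped in this sum, and the highest and the lowest tumor differed in genotype. At least 1 FPKM was reached by 3 Hox genes in tumor 26043, 11 in 26044, 8 in 26048 and 1 in 26050.

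**Figure D1:**
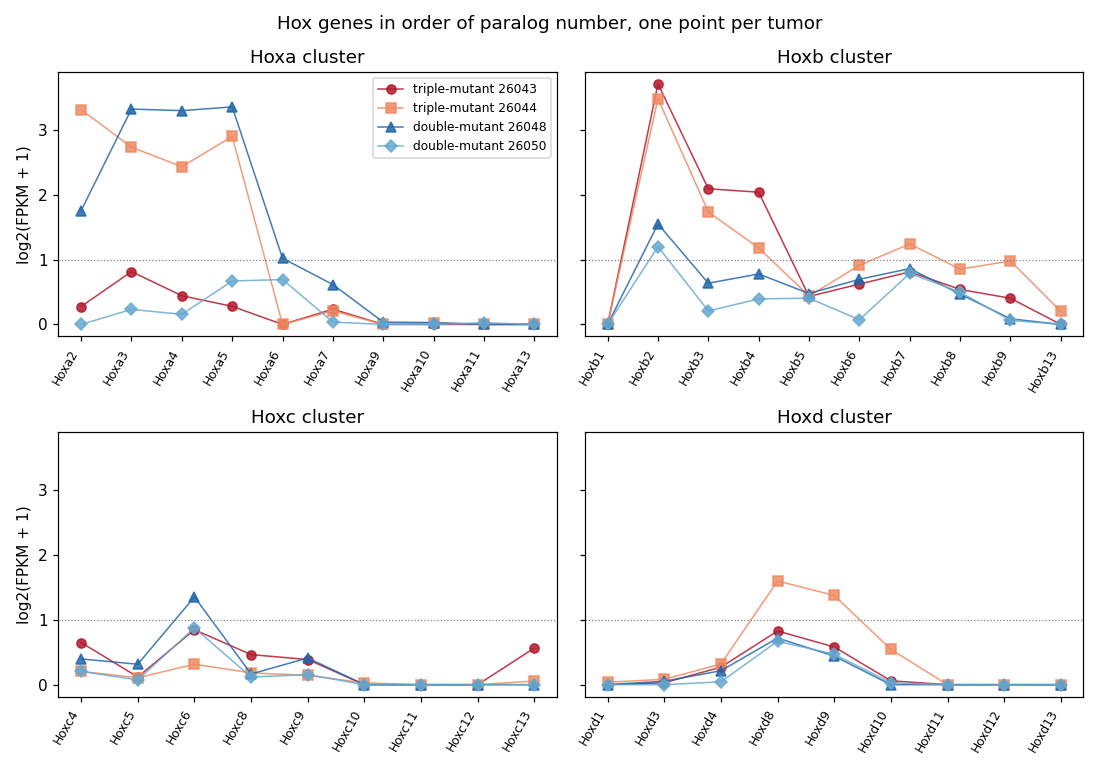
Level of each Hox gene reported here, as log2(FPKM + 1), in order of paralog number within its cluster, with 1 point for each tumor, lines to guide the eye and a dotted line at 1 FPKM. Both triple-mutant tumors lay above both double-mutant tumors at Hoxb2, Hoxb3 and Hoxb4, while Hoxa2 to Hoxa5 were high in 1 tumor of each genotype (26044 and 26048).

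The 3′ part of the Hoxb cluster separated the genotypes. Hoxb2, a paralog group 2 gene known from hindbrain patterning, was 12.1 and 10.2 FPKM in triple-mutant tumors 26043 and 26044, and 1.93 and 1.30 FPKM in double-mutant tumors 26048 and 26050. It was the most abundant Hox gene in the tumors 26043, 26044 and 26050, and both triple-mutant values lay above both double-mutant values. The means were 11.2 ± 1.36 and 1.62 ± 0.447 FPKM (SD, n = 2 each), a ratio of 6.92. In tumors 26043 and 26044 the FPKM of Hoxb2 lay outside the interval that Cufflinks gave with it, which was 6.30 to 8.52 and 5.75 to 8.05 FPKM. This was not particular to Hoxb2, as between 5668 and 6827 of the 23746 rows of a tumor lay outside their interval. The intervals of the double-mutant tumors were 0.967 to 1.93 and 0.596 to 1.37 FPKM, so the genotypes stayed apart on the intervals as well.

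Hoxb3 and Hoxb4, the next genes of the cluster, had the same order of genotypes at lower levels. Hoxb3 was 3.28 FPKM in tumor 26043 and 2.34 FPKM in tumor 26044 (triple-mutant), and 0.555 FPKM in tumor 26048 and 0.156 FPKM in tumor 26050 (double-mutant). Hoxb4, which is known for expanding blood stem cells when forced, was 3.12 and 1.27 FPKM in 26043 and 26044, and 0.717 and 0.314 FPKM in 26048 and 26050. Neither gene overlapped between genotypes, and both were highest in tumor 26043. The ratio of means was 7.90 for Hoxb3 (2.81 ± 0.662 against 0.355 ± 0.282 FPKM) and 4.26 for Hoxb4 (2.19 ± 1.31 against 0.515 ± 0.285 FPKM; SD, n = 2 each).

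None of these differences passed the test across all genes. The test was limma on log2(FPKM + 1) with Benjamini-Hochberg adjustment, run on the 12752 genes that reached 1 FPKM in 2 or more tumors, and it measures the spread between these tumors only. Hoxb2 had a log2 fold change of 2.22 (SE 0.33, 95% interval 1.36 to 3.09, unadjusted p = 0.00153, adjusted p = 0.205). Hoxb3 had 1.49 (SE 0.34, interval 0.59 to 2.40, unadjusted p = 0.00888, adjusted p = 0.393) and Hoxb4 had 1.03 (SE 0.42, interval -0.10 to 2.15, adjusted p = 0.532), which was 0.59 without tumor 26043. On this scale the change of low genes is understated. Hoxb3 and Hoxb4 reached 1 FPKM in the triple-mutant tumors alone, and so could enter the test only by being higher there, while Hoxb2 passed in all 4 tumors. The limma test called 0% of all genes at an adjusted p under 0.05, and an unadjusted p under 0.05 was found for 9.82% of them, Hoxb2 and Hoxb3 among them. The smallest adjusted p of any gene was 0.0644.

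**Figure D2:**
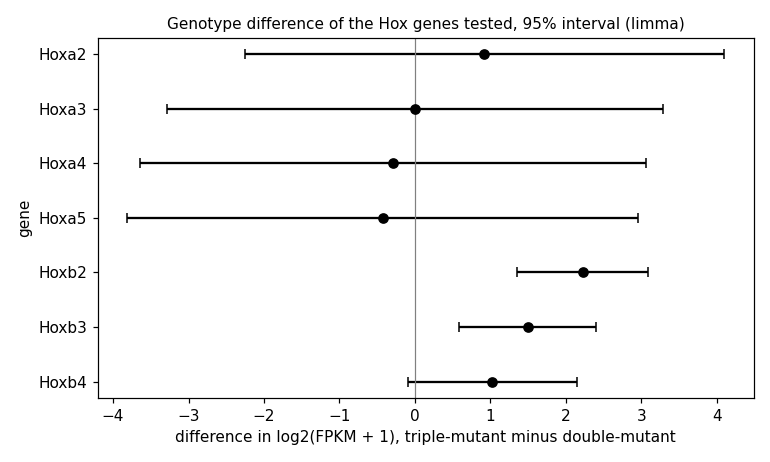
Difference in log2(FPKM + 1) between the genotypes, triple-mutant minus double-mutant, for 7 of the 8 Hox genes that reached 1 FPKM in at least 2 tumors, with points for the limma estimate and bars for its 95% interval. The intervals of Hoxb2 and Hoxb3 lay above 0, that of Hoxb4 reached -0.10, and those of the 4 Hoxa genes extended far to both sides of 0.

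Further towards the 5′ end the Hoxb genes were at most 1.37 FPKM, and some overlapped between genotypes while others did not. Hoxb5, the next gene towards the 5′ end, was 0.350 and 0.356 FPKM in tumors 26043 and 26044, and 0.392 and 0.325 FPKM in 26048 and 26050. Hoxb7, which has been linked to breast cancer, was 0.756 and 1.37 FPKM in the triple-mutant tumors, and 0.818 and 0.727 FPKM in the double-mutant tumors. The genotypes overlapped for both genes. Hoxb6 overlapped too, at 0.540 and 0.883 against 0.622 and 0.0508 FPKM, and Hoxb8 was 0.455 and 0.807 against 0.383 and 0.412 FPKM, apart by a small margin. Hoxb9 was 0.323 and 0.973 FPKM in 26043 and 26044, and 0.0623 and 0.0447 FPKM in 26048 and 26050, apart between genotypes but below 1 FPKM throughout. Hoxb1 was listed at 0 in every tumor. The cluster lies on chr11:96194361-96368253 on GRCm38, and its 10 genes summed to 21.0 and 18.4 FPKM in the triple-mutant tumors and 5.48 and 3.33 FPKM in the double-mutant tumors. The log2 difference of the sums was 1.96, with an exact two-sided permutation p of 0.333, the smallest that 2 tumors against 2 can give. With a tumor left out, the log2 difference ran from 1.67 (without tumor 26050) to 2.25 (without tumor 26048).

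The Hoxa cluster behaved otherwise: its 3′ genes were high in 1 tumor of each genotype. Hoxa5, a factor known to activate p53 transcription in breast cancer cells, was 0.214 and 6.49 FPKM in triple-mutant tumors 26043 and 26044, and 9.27 and 0.592 FPKM in double-mutant tumors 26048 and 26050. Hoxa4 was 0.360 and 4.41 FPKM in 26043 and 26044, and 8.87 and 0.115 FPKM in 26048 and 26050. Tumors 26044 and 26048 were thus far above the other two for both genes, and the genotypes overlapped.

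The remaining 3′ genes gave the same division. Hoxa3, known from pharyngeal gland development, was 0.761 and 5.67 FPKM in tumors 26043 and 26044, and 9.04 and 0.174 FPKM in 26048 and 26050. Hoxa2, the hindbrain and second-arch selector gene, was 0.212 and 8.98 FPKM in 26043 and 26044, 2.38 FPKM in 26048 and listed at 0 in 26050. By FPKM, tumor 26044 was highest for Hoxa2, and tumor 26048 for Hoxa3, Hoxa4 and Hoxa5. In tumor 26048 the FPKM of Hoxa3, Hoxa4 and Hoxa5 lay above their Cufflinks intervals. The intervals of tumors 26044 and 26048 overlapped for Hoxa3 (4.94 to 6.42 and 5.34 to 6.76 FPKM) and Hoxa5 (5.36 to 7.25 and 6.46 to 8.39 FPKM). Those of Hoxa4 were apart, at 2.15 to 3.55 and 4.74 to 6.78 FPKM. The Hoxa3 locus spans Hoxa4, Hoxa5 and Hoxa6, so the division of reads among these genes is uncertain.

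The genotype difference of these 4 genes could not be fixed in sign at this number of tumors. The limma log2 fold change was 0.92 for Hoxa2 (SE 1.20, 95% interval -2.25 to 4.09, adjusted p = 0.813) and -0.42 for Hoxa5 (SE 1.28, interval -3.81 to 2.96, adjusted p = 0.923). It was -0.0024 for Hoxa3 (SE 1.24) and -0.29 for Hoxa4 (SE 1.27), with adjusted p of 0.945 or more in each. The sign of Hoxa3, Hoxa4 and Hoxa5 turned without tumor 26043 (0.96, 0.71 and 0.89) and without tumor 26048 (1.55, 1.28 and 0.92), and that of Hoxa2 turned without tumor 26044 (-0.60). These intervals leave room for differences of more than 2 log2 units in either direction for Hoxa2 to Hoxa5. Within a genotype the gap was as wide: tumor 26044 exceeded tumor 26043 by 2.62 log2 units of FPKM + 1 for Hoxa5, and tumor 26048 exceeded tumor 26050 by 2.69.

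Towards the 5′ end the values of the Hoxa cluster were low. Hoxa6 was listed at 0 in both triple-mutant tumors, and was 1.03 and 0.617 FPKM in double-mutant tumors 26048 and 26050. It was the single Hoxa gene whose genotypes did not overlap, but this rests on the listed zeros, and it did not reach the filter of the test. Hoxa7 was at most 0.532 FPKM, and Hoxa9, Hoxa10, Hoxa11 and Hoxa13 were at most 0.0246 FPKM. The cluster lies on chr6:52155367-52260880, and its 11 genes summed to 1.89 and 28.2 FPKM in the triple-mutant tumors and to 32.9 and 2.08 FPKM in the double-mutant tumors. The log2 difference of the sums was -0.15 (exact two-sided permutation p = 0.667), and it was 1.51 without tumor 26043 and 1.58 without tumor 26048.

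**Figure D3:**
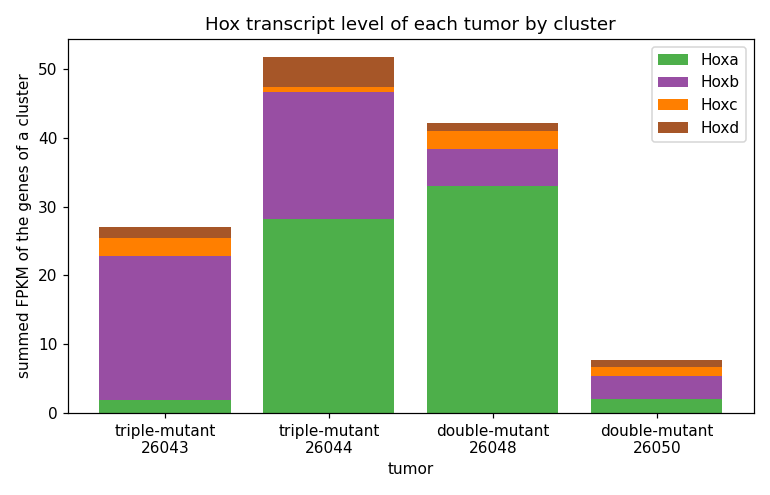
Summed FPKM of the genes of each Hox cluster, stacked for each of the 4 tumors. Hoxb made up 77.6% of Hox FPKM in tumor 26043 and Hoxa 78.0% in tumor 26048, while tumor 26050 had 7.68 FPKM in all.

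Paralogs of the same number were therefore not always high in the same tumors. In triple-mutant tumor 26043 Hoxb2 was 12.1 FPKM and Hoxa2 0.212 FPKM, while in double-mutant tumor 26048 Hoxb2 was 1.93 FPKM and Hoxa2 2.38 FPKM. In tumor 26044 both were high, at 10.2 and 8.98 FPKM, and in tumor 26050 Hoxb2 was 1.30 FPKM with Hoxa2 at 0. Hoxb made up 77.6% and 35.5% of the Hox FPKM of the triple-mutant tumors, and 12.997% and 43.3% of that of the double-mutant tumors. Hoxa made up 7.0003% and 54.5%, and 78.0% and 27.1%. The shares of both clusters overlapped between genotypes, in contrast to the summed level of Hoxb.

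The Hoxd cluster was led by Hoxd8 and Hoxd9, both at their highest in tumor 26044. Hoxd8 was 0.777 and 2.03 FPKM in triple-mutant tumors 26043 and 26044, and 0.648 and 0.592 FPKM in double-mutant tumors 26048 and 26050. Hoxd9 was 0.497 and 1.60 FPKM in the triple-mutant tumors, and 0.357 and 0.386 FPKM in the double-mutant tumors. Neither overlapped between genotypes, but tumor 26043 lay close to the double-mutant tumors, and its Cufflinks interval for Hoxd8, 0.491 to 1.07 FPKM, covered both of their values. Hoxd10, a gene often silenced in breast cancer, was 0.0424 and 0.459 FPKM in 26043 and 26044, listed at 0 in 26048 and 0.0210 FPKM in 26050. Hoxd11, Hoxd12 and Hoxd13 were at 0 in every tumor. The 9 genes of the cluster, on chr2:74668310-74765142, summed to 1.54 and 4.43 FPKM in the triple-mutant tumors and 1.20 and 1.03 FPKM in the double-mutant tumors. The log2 difference of the sums was 0.81 (exact two-sided permutation p = 0.333) and 0.27 without tumor 26044.

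The Hoxc cluster, on chr15:102921131-103036852, was low throughout. Hoxc6 was its single gene to reach 1 FPKM, with 0.801 and 0.245 FPKM in triple-mutant tumors 26043 and 26044, and 1.56 and 0.836 FPKM in double-mutant tumors 26048 and 26050. Both double-mutant values were higher, but the value of tumor 26050 lay inside the Cufflinks interval of tumor 26043, 0.464 to 1.12 FPKM. Hoxc13, which controls hair keratins, was 0.481 and 0.03995 FPKM in tumors 26043 and 26044 and listed at 0 in both double-mutant tumors. The 9 genes summed to 2.63 and 0.774 FPKM in the triple-mutant tumors and 2.57 and 1.24 FPKM in the double-mutant tumors, with a log2 difference of -0.16 (exact two-sided permutation p = 1.0) that turned to 0.36 without tumor 26044 and 0.18 without tumor 26048.

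By class, the tumors expressed anterior and central genes and little of the posterior ones. The 16 genes of paralog groups 9 to 13 had 15 members below 1 FPKM in every tumor, and the 12 genes of groups 10 to 13 stayed at or below 0.481 FPKM. The 8 anterior genes (groups 1 to 3) summed to 16.6 and 29.8 FPKM in triple-mutant tumors 26043 and 26044, and to 15.7 and 2.17 FPKM in double-mutant tumors 26048 and 26050. The log2 difference was 1.68 (exact permutation p = 0.333), although tumor 26043 exceeded tumor 26048 by little, and it was 0.48 without tumor 26050. The 15 central genes (groups 4 to 8) summed to 8.79 and 18.6 FPKM in the triple-mutant tumors and 25.7 and 4.93 FPKM in the double-mutant tumors, with a difference of 0.14 (exact permutation p = 1.0) that turned to -0.36 without tumor 26044 and to -0.94 without tumor 26050. The posterior genes summed to 1.65 and 3.36 FPKM against 0.795 and 0.583 FPKM, a difference of 1.01 (exact permutation p = 0.333) that was 0.65 without tumor 26044.

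Counted over all 39 Hox genes, with no filter, 11 had both triple-mutant values above both double-mutant values, 2 had them below both, and 26 overlapped or were at 0. Over all 23746 rows, 16.5% were higher and 16.2% lower in this way. The 11 were Hoxb2, Hoxb3, Hoxb4, Hoxb8, Hoxb9, Hoxc8, Hoxc13, Hoxd4, Hoxd8, Hoxd9 and Hoxd10, and 6 of them stayed below 1 FPKM in every tumor. The 2 were Hoxa6 and Hoxc6. The Cufflinks intervals were apart as well for Hoxb2, Hoxb3, Hoxb4 and Hoxb9 among the former and for Hoxa6 among the latter. Within the filter of the test, 21.3% of genes were higher and 22.9% lower in both triple-mutant tumors. Of the 8 Hox genes that passed it, 3 were higher (Hoxb2, Hoxb3 and Hoxb4) and 0 lower. Hoxb3 and Hoxb4 passed through the triple-mutant tumors alone and so could only count as higher. Of the 32 Hox genes above 0 in any tumor, 14 had their highest value in tumor 26044, 11 in 26048, 6 in 26043 and 1 in 26050.

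The clusters also hold rows that are not Hox genes. Of these 12, 7 were listed at 0 in every tumor, among them Hotair in Hoxc, Hoxa11as in Hoxa and Mir10b in Hoxd. Mira, a noncoding transcript within Hoxa, was 0.178 and 0.635 FPKM in tumors 26043 and 26044, and 1.77 and 0.0510 FPKM in 26048 and 26050, highest in one of the tumors with high Hoxa. Mir10a, a microRNA gene before Hoxb4, was listed at 0 in 3 tumors and at 11.1 FPKM in tumor 26048. Its row is 110 bases long, so that few reads make a high FPKM, and its level did not go with that of Hoxb4.

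Genes beside the clusters were counted in the same way, against 21.3% higher and 22.9% lower over all genes of the filter. Of the 33 genes of the filter within 1 Mb of Hoxb, 8 were higher and 6 lower in both triple-mutant tumors, with a median log2 fold change of -0.02 beside -0.02 for all genes tested. Both counts were near the shares over all genes. The 8 genes beside Hoxa had 1 higher and 1 lower (median -0.49), the 35 beside Hoxc 5 higher and 19 lower (median -0.35), and the 8 beside Hoxd 1 higher and 4 lower (median -0.13). The number lower beside Hoxc was above the share over all genes, and its part in the Hoxc values was not tested. The neighbors with the largest differences were Krt79 beside Hoxc (log2 fold change 3.22, 213 and 18.1 FPKM against 16.4 and 1.70), Igf2bp1 beside Hoxb (-2.02, 0.00872 and 0.0977 FPKM against 3.26 and 3.31) and Ngfr beside Hoxb (1.93, 1.04 and 14.2 FPKM against 0.929 and 0.112). The RNA-binding protein gene Igf2bp1, 188 kb from the 5′ end of Hoxb, thus had the opposite direction to Hoxb2, with an adjusted p of 0.199 in limma. Igf2bp1 passed the filter through the double-mutant tumors alone, and so could only count as lower. Ngfr passed through the triple-mutant tumors alone, and so could only count as higher.

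Partners and regulators of Hox genes were taken from fixed lists. Of the 9 Pbx, Meis and Pknox cofactors, 7 passed the filter. Of these 7, 3 were higher in both triple-mutant tumors, none was lower, and the median log2 fold change was 0.36. Over all genes tested, 21.3% were higher, 22.9% were lower and the median was -0.02. Meis2, which did not pass the filter, was lower in both triple-mutant tumors. It was 0.317 and 0.0365 FPKM in tumors 26043 and 26044, and 3.86 and 0.625 FPKM in 26048 and 26050. Pbx3 was 16.2 and 15.5 FPKM in triple-mutant tumors 26043 and 26044, and 6.72 and 5.19 FPKM in double-mutant tumors 26048 and 26050, with a log2 fold change of 1.29 (SE 0.31, limma unadjusted p = 0.0102, adjusted p = 0.396). It did not overlap, as was true of Hoxb2, and in 3 of the tumors, all but 26048, its level was above that of every Hox gene. Pknox1 (log2 fold change 0.63) and Pbx2 (0.49) were the other 2. No gene of the list passed the adjusted test.

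Retinoic acid genes did not pass the adjusted test. Of 18 genes for its synthesis, breakdown, binding and receptors, 14 passed the filter, 5 were higher in both triple-mutant tumors, 0 were lower and 0 passed limma after adjustment, with 4 at an unadjusted p under 0.05 and a median log2 fold change of 0.75. Over all genes tested, 21.3% were higher, 22.9% were lower and 9.82% had an unadjusted p under 0.05. Aldh1a1, which makes retinoic acid from retinaldehyde, was 34.1 and 7.05 FPKM in tumors 26043 and 26044, and 0.403 and 0.371 FPKM in 26048 and 26050, with a log2 fold change of 3.60 (SE 0.76, adjusted p = 0.349). Aldh1a1 passed the filter through the triple-mutant tumors alone, and so could only count as higher. The binding protein gene Crabp1 was 17.9 and 11.3 FPKM in 26043 and 26044, and 6.63 and 0.946 FPKM in 26048 and 26050 (1.98, SE 0.74, adjusted p = 0.508). Dhrs3, a retinaldehyde reductase gene that retinoic acid itself induces, was 74.7 and 39.5 FPKM against 19.0 and 20.3 FPKM (1.42, SE 0.39, adjusted p = 0.463). The order of the tumors for Aldh1a1 and Dhrs3, 26043 above 26044 above both double-mutant tumors, was that of Hoxb2, Hoxb3 and Hoxb4. The basal marker Krt5 had this order too, at 596 and 114 FPKM in 26043 and 26044, and 1.15 and 2.06 FPKM in 26048 and 26050. Cyp26a1, of the same list but outside the filter, was 0.782 FPKM in 26043 and 5.64 FPKM in 26044, the other order. A link between retinoic acid genes and Hoxb levels was not tested.

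**Figure D4:**
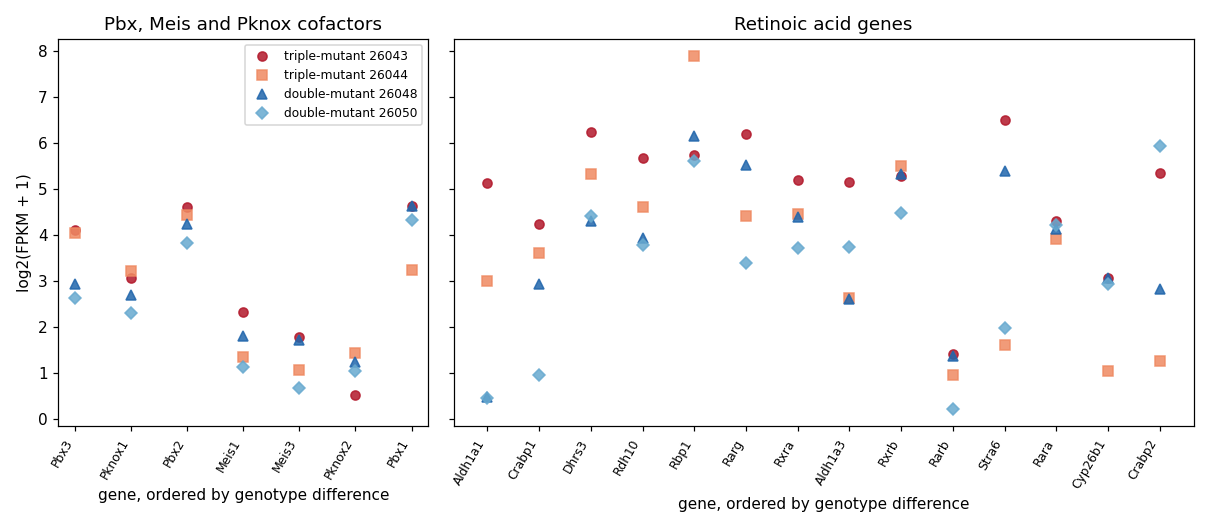
Level in each tumor, as log2(FPKM + 1), of the 7 cofactor genes (left) and the 14 retinoic acid genes (right) that passed the filter, ordered by their genotype difference. Both triple-mutant tumors lay above both double-mutant tumors at Pbx3, Pknox1 and Pbx2 and at Aldh1a1, Crabp1, Dhrs3, Rdh10 and Rxra.

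The regulators that keep Hox genes on or off had members in both directions, against 21.3% higher and 22.9% lower over all genes tested. All 9 genes of the Kmt2a list passed the filter, with 1 higher and 4 lower in both triple-mutant tumors and a median log2 fold change of -0.23. Men1 (0.72), Ash2l (-0.72) and Rbbp5 (-0.68) differed most among those that did not overlap. All 17 Polycomb genes passed, with 4 higher and 5 lower and a median of 0.02, near the shares over all genes. Phc1 (0.82), Ezh2 (-0.76) and Suz12 (-0.73) differed most. The 8 Evx and ParaHox genes, homeobox relatives of the clusters, were at most 0.0739 FPKM, and 5 of them were at 0 in every tumor.

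Markers of cell types differed between the tumors as well, and their counts stand against 21.3% of all genes tested that were higher and 22.9% that were lower in both triple-mutant tumors. The 8 basal and myoepithelial markers summed to 1751 and 1315 FPKM in the triple-mutant tumors and 70.4 and 47.6 FPKM in the double-mutant tumors, and all 7 that passed the filter were higher in both triple-mutant tumors, as Hoxb2, Hoxb3 and Hoxb4 were. Krt5 was 596 and 114 FPKM against 1.15 and 2.06 FPKM, and Trp63 was 28.5 and 48.1 FPKM against 1.24 and 0.670 FPKM. The 10 fibroblast markers summed to 242 and 139 FPKM in the triple-mutant tumors and 957 and 465 FPKM in the double-mutant tumors, with 5 of the 9 that passed lower and 1 higher. Of 8 luminal markers, 4 were higher and 1 lower, with sums of 1461 and 243 FPKM against 367 and 311 FPKM. Esr1, among the 4, passed the filter through the triple-mutant tumors alone, and so could only count as higher. The 8 leukocyte markers summed to 51.8 and 45.2 FPKM against 83.5 and 83.9 FPKM, with 3 of the 4 that passed lower. Their part in the Hoxb result was not tested.

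The sum of endothelial markers and the level of Fabp4 were highest in the tumors with high Hoxa2 to Hoxa5, while the other fat markers were highest in tumor 26048. The 6 adipocyte markers summed to 7.77 FPKM in tumor 26043, 261 in 26044, 1420 in 26048 and 32.0 in 26050, with the fat-defining gene Adipoq at 0.328, 0, 56.0 and 0.829 FPKM. Fabp4, which capillaries also express, was 7.01, 261, 1263 and 29.9 FPKM. In tumor 26044 Adipoq, Plin1, Retn and Lep were listed at 0 and Cidec was 0.0631 FPKM, so that its adipocyte sum was Fabp4. The 6 endothelial markers summed to 27.8 FPKM in tumor 26043, 83.8 in 26044, 45.6 in 26048 and 25.1 in 26050. Of the 5 that passed the filter, 1 was higher in both triple-mutant tumors, beside 21.3% of all genes tested. That marker was thus higher in 26043 than in 26048, unlike Hoxa2 to Hoxa5. Skeletal muscle markers summed to 5.39 and 5.80 FPKM in the triple-mutant tumors and 8.90 and 41.1 FPKM in the double-mutant tumors, and the 4 epidermis markers found to 8.39 and 5.11 against 4.84 and 1.73 FPKM, neither in the order of the Hoxa genes. The part of fat and vessels in the Hoxa values was not tested.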

How the data were processed

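PolyA RNA of 4 tumors was sequenced as single-end reads. The deposited tables, 1 per tumor, give FPKM per gene with the bounds of the Cufflinks interval and a status. The submitters' processing notes name TopHat2 2.0.10, Bowtie 0.12.9, HTSeq, Cufflinks 2.1.1, DESeq2 1.6.2 and mm10. The strand setting of Cufflinks is not given in the sources used here, so reads of overlapping and antisense genes may be mixed. Read counts were not analysed here and depth is unknown. The median half-width of the interval was 8.35% to 8.78% of its midpoint per tumor.

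Genes that reached 1 FPKM in 2 or more tumors were fitted on log2(FPKM + 1) with limma 3.58.1 in R 4.3.3 (eBayes with trend, Benjamini-Hochberg over 12752 genes, threshold 0.05), triple-mutant minus double-mutant. Cluster sums were compared by exact two-sided permutation. Scripts were tested on simulated data. Tables were joined with pandas 2.3.3 and numpy 2.4.6 in Python 3.11.15, and plots drawn with matplotlib 3.10.9. Members and gene lists were chosen with earlier results of these data known. Named are the Hox genes with 1 FPKM in any tumor, except for a value not reported here, further Hox genes picked for their values, and of each regulator list and of the neighbors the 3 with the largest differences that do not overlap, with marker genes picked for their role. Nothing in the labels says that the tumors came from separate animals. Starts count from 1 on GRCm38, where all 39 Hox rows overlapped the annotated gene. Promoters of Hoxb2 and Hoxb3 are not shown because the promoter sequences used had no entry for them. Alternatives were another pseudocount, other filters, TPM, quantile normalization, no trend, status OK genes, the interval midpoint and each tumor left out.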

Additional observations from a re-analysis of the deposited data

How the results depend on the processing

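No paired analysis was made because the labels give no pairing of the tumors. The study describes the triple-mutant females as littermates of the double-mutant ones, but the litter of each tumor is not given in the sources used here. No Hox gene was called by limma under any alternative run. Among all genes, 6 were called after quantile normalization, 5 without the trend and 1 with the interval midpoint, and 0 with any tumor left out. Hox genes higher in both triple-mutant tumors numbered 3, but 11 with no filter and 1 with a filter of 5 FPKM, and 3 to 6 with a tumor left out. Hox genes lower in both numbered 0, but 2 with no filter, and 0 to 3 with a tumor left out. These counts moved with the genes admitted and with fewer tumors to overlap.

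Hoxb2, Hoxb3 and Hoxb4 kept their direction under every alternative that gave a value. Most alternatives could not turn it, so this is no check of the direction. The genotypes did not overlap, so another pseudocount or a tumor left out keeps the sign. Filters and the trend setting leave the fold change as it is. With all 4 tumors, the alternatives gave limma adjusted p of 0.185 to 0.401 for Hoxb2, 0.356 to 0.500 for Hoxb3 and 0.480 to 0.734 for Hoxb4. Leaving out a tumor gave 2.05 to 2.40, 1.28 to 1.71 and 0.59 to 1.46. The pseudocount of 0.1 moved Hoxb3 to 2.81 and Hoxb4 to 1.85. The sum of Hoxa changed sign with the interval midpoint (0.041), and Hoxa3 with a pseudocount of 0.1 (0.49), TPM (0.0044) and the midpoint (0.26), as did Hoxa4 with the pseudocount of 0.1 (0.055). The cause was not tested. With a tumor left out, the log2 difference ran from -1.88 to 1.58 for the Hoxa sum, 1.67 to 2.25 for Hoxb, -0.67 to 0.36 for Hoxc and 0.27 to 1.36 for Hoxd. It ran from 0.48 to 2.87 for anterior, -0.94 to 1.23 for central and 0.65 to 1.37 for posterior genes. For single genes it ran from -0.60 to 2.44 (Hoxa2), -1.55 to 1.55 (Hoxa3), -1.86 to 1.28 (Hoxa4) and -1.77 to 0.92 (Hoxa5). In these fits the lone tumor of a genotype is assumed to vary like the others. With 2 tumors a genotype, no exact permutation test can reach the threshold, and FPKM below 1 rest on an unknown number of reads.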
